A study of Homo sapiens with 2 samples.

Results

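The genes described here are the expressed ZNF genes, those whose symbol is ZNF followed by a number, in MDA-MB-231 cells. ZNF703 was left out of the set by its definition. They were chosen by symbol and selected on intensity: a gene entered when a probe read 80 or more, in units of linear intensity, on at least 1 of the 2 arrays, and its brightest probe then stood for it. The set held 126 genes of 419 ZNF genes on the array, and 7012 named genes of the whole array met the same minimum. MDA-MB-231 is an established, highly invasive human breast cancer line. One culture was treated with 20 nM of an siRNA against NSD3L, which is the longer product of the histone methyltransferase gene NSD3. The other was treated with a non-specific control siRNA, for which the labels state no dose. Cells were transfected 2 times with 48 h between, and collected after a further 48 h. Each culture was measured on 1 Illumina expression array, so the values carry no replicate error, no difference could be tested, and culture, RNA extract, array and siRNA cannot be told apart.

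Most ZNF genes encode C2H2 zinc finger proteins, in which a pair of cysteines and a pair of histidines hold a zinc ion and rows of such fingers read DNA sequence. Many also carry a KRAB domain, which recruits the co-repressor TRIM28 and with it histone methylation and silencing, classically of transposable elements. In the human genome many of them lie side by side in clusters on chromosome 19, where they arose by repeated duplication, and a minority of genes with a ZNF symbol work outside DNA binding altogether.

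ZNF395 stood apart from all other ZNF genes. ZNF395, a transcription factor gene induced in hypoxia whose product is also known to bind the huntingtin promoter, read 713 after the NSD3L siRNA against 239.8 after the control siRNA, 2.97-fold higher. Its log2 ratio of 1.57 was 0.54 above that of the next ZNF gene and held rank 3 among the 7012 named genes. The SD of the log2 ratio over array probes of similar brightness was 0.40. ZNF395 had 1 named probe, so no further probe repeats this value, and the gene was singled out with its ratio already known.

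ZNF395 has a pair of relatives by protein family. SLC2A4RG, which encodes the GLUT4 enhancer factor and is no ZNF symbol, read 136 against 82.8, a log2 ratio of 0.72 and 1.65-fold higher, where the SD of similarly bright probes was 0.36. ZNF704, the other relative, did not reach the minimum. One of its probes read 59.9 against 64.4, and the other 39.8 against 40.8, close to the most frequent reading of the arrays, 34.8 and 34.9. Of the family, then, the pair of genes that could be read above the minimum were both higher with the NSD3L siRNA, and ZNF704 was too dim for a ratio to be read.

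**Figure D1:**
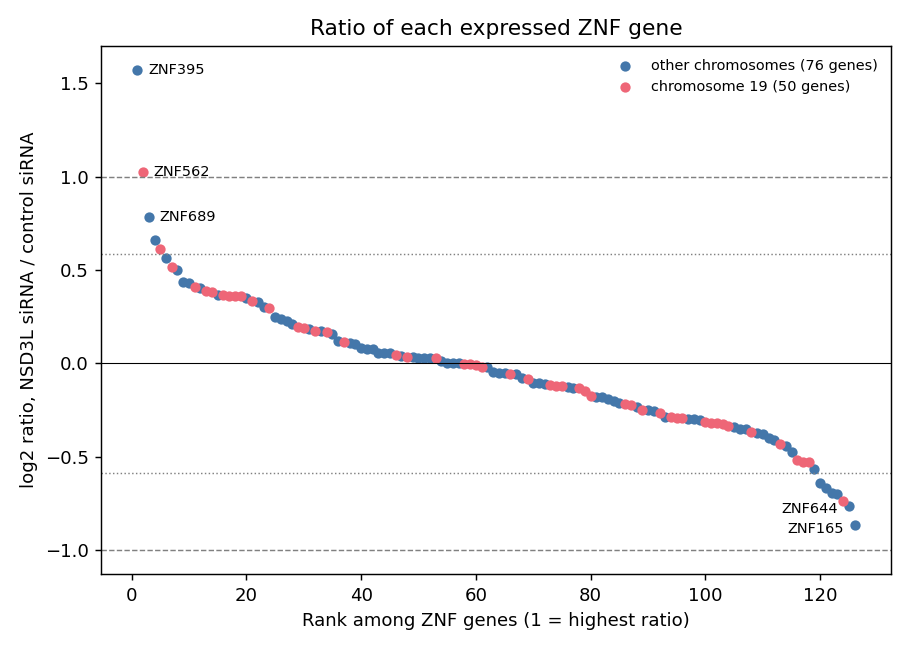
Log2 ratio, NSD3L siRNA over control siRNA (vertical axis), for each of the 126 ZNF genes, ordered by ratio (horizontal axis), with the 50 genes of chromosome 19 in red and the 76 others in blue. Dotted lines mark 1.5-fold and dashed lines 2-fold. ZNF395 at 1.57 and ZNF562 at 1.03 lie past 2-fold, and no gene lies past 2-fold on the lower side.

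As a group the ZNF genes were near the array's centre. Of the 126, 57 lay above the control and 69 below it, beside 49.3% higher and 50.5% lower among all named genes at the same minimum. Their median log2 ratio was -0.05, with quartiles of -0.29 and 0.17, against a median of -0.01 and quartiles of -0.24 and 0.24 for all named genes. With a trend of the ratio on gene density removed, 47 were higher and 79 lower, and the median was -0.11. The shares of all named genes were not counted after that removal, so those 2 counts have no background beside them. Past 1.5-fold, 5 were higher and 7 lower, where 5.36% and 5.82% of all named genes were. Past 2-fold, 2 were higher and 0 lower, where the shares of all named genes were 0.513% and 0.913%. The counts past 1.5-fold are thus near the background on both sides. In all, 67 of the ZNF genes, 53.2%, stayed within 1.2-fold, beside 54.6% of all named genes.

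The values that let a gene in bear on these counts. Both arrays reached 80 for 107 genes, 13 passed on the control array alone and 6 on the NSD3L siRNA array alone, and those 19 had to differ in the direction that admitted them. The 107 had a median log2 ratio of -0.01 with 51 higher and 56 lower. At the edge of the minimum, ZNF514 (80.1 against 64.8), ZNF81 (49.6 against 80.2), ZNF510 (67.5 against 80.6) and ZNF343 (81.0 against 80.9) were just inside. Just outside lay ZNF335 (79.8 against 65.0), ZNF76 (70.6 against 79.7), ZNF573 (79.6 against 72.3) and ZNF583 (69.9 against 78.6). The 293 ZNF genes below 80 are not described further.

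**Figure D2:**
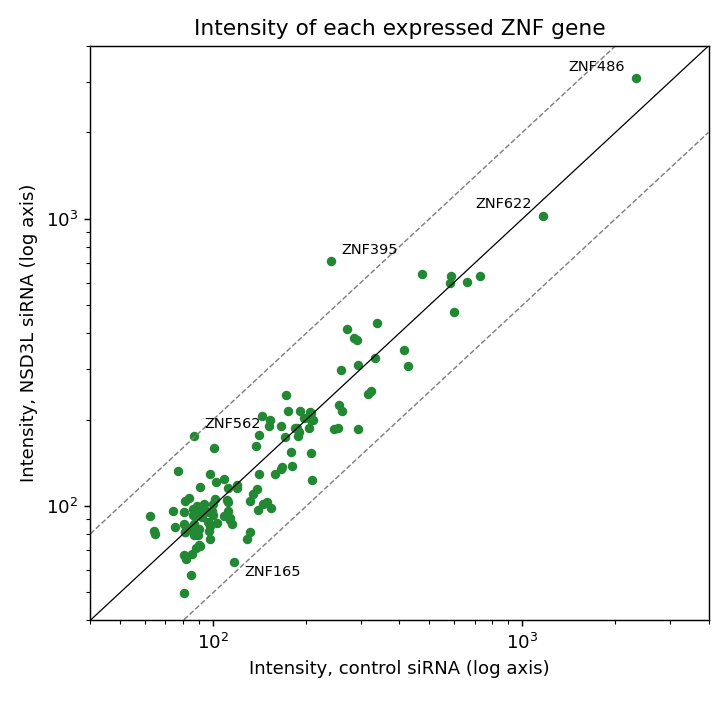
Intensity of each of the 126 ZNF genes on the control siRNA array (horizontal, log axis) and the NSD3L siRNA array (vertical, log axis), 1 point per gene. The solid line is equality and the dashed lines are 2-fold. Most genes crowd near 100, ZNF395 lies above the upper dashed line and ZNF486 is the brightest, at 3092 against 2325.

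ZNF genes were dim on the whole. Their median intensity was 118, against 220.4 for all named genes, and 8 of them had a mean above 500. The brightest was ZNF486, a zinc finger gene of chromosome 19, at 3092 against 2325 and a log2 ratio of 0.41. ZNF622, whose product matures the large ribosomal subunit, followed at 1025 against 1163, a log2 ratio of -0.18. Then came ZNF22 at 634 against 729 and ZNF664 at 604 against 659. The brightest members thus differed little, ZNF486 most.

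After ZNF395, the highest ratio was that of ZNF562, a zinc finger gene of chromosome 19. It read 176 against 86.3, a log2 ratio of 1.03 and 2.04-fold higher. ZNF689 read 132 with the NSD3L siRNA and 76.6, under the minimum, with the control, a log2 ratio of 0.78. These genes were followed by ZNF462, a chromatin-associated gene altered in a developmental syndrome, at 159 against 101 and 0.66. ZNF14 read 414 against 271, a log2 ratio of 0.61, and was the last one past 1.5-fold. Below that lay ZNF488, whose mouse counterpart acts with Olig2 in oligodendrocytes, at 92.6 against 62.5 and 0.57, ZNF787 at 0.52, ZNF786 at 0.50, ZNF185 at 0.44, ZNF511 at 0.43, ZNF486 at 0.41 and ZNF362 at 0.40. Of these genes, ZNF689 and ZNF488 met the minimum on the NSD3L siRNA array alone, so they had to be higher.

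At the other end, ZNF165, a cancer-testis antigen gene whose product carries a SCAN domain, read 63.8 against 116 in the control. Its log2 ratio of -0.87 was the lowest of the family, 1.82-fold lower. ZNF644, whose product works with the histone H3 methyltransferases G9a and GLP, read 123 against 208, a log2 ratio of -0.76. ZNF615 on chromosome 19 read 76.8 against 128, a log2 ratio of -0.74. Each of these was within 2-fold. ZNF25 (81.2 against 132), ZNF81 (49.6 against 80.2), ZNF438 (186 against 295) and ZNF800 (98.5 against 153) had log2 ratios of -0.70, -0.69, -0.66 and -0.64 and complete the set past 1.5-fold. ZNF184 had -0.56, ZNF529 -0.53, ZNF614 -0.53, ZNF226 -0.52 and ZNF706 -0.48. Of the genes in this paragraph, ZNF165, ZNF615, ZNF81 and ZNF184 met the minimum on the control array alone, so they had to be lower. Among similarly bright probes of the whole array the SD of the log2 ratio ran from 0.30 to 0.42, so the ratios from ZNF184 to ZNF706 lay within 1 to 2 times that spread. The same held for ZNF81, ZNF438 and ZNF800, and for ZNF462 and ZNF14 at the upper end, though all are past 1.5-fold. It did not hold for ZNF165, ZNF644, ZNF615 and ZNF25, which lay somewhat further out.

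DNA-binding members with well-known roles went both ways. Of 15 such genes, gathered with their values known, 8 were higher and 7 lower, with a median log2 ratio of 0.03. ZNF217, a breast cancer oncogene that encodes a transcriptional repressor, read 473 against 603 and -0.35. ZNF143, an activator of promoters including those of small nuclear RNA genes, read 214 against 261 and -0.29. The ratio was -0.34 for ZNF24, a SCAN domain repressor, -0.35 for ZNF10, the source of the KRAB domain used in engineered repressors, and -0.33 for ZNF350, a repressor that binds BRCA1. Of these, ZNF10 and ZNF350 met the minimum on the control array alone, and ZNF217 and ZNF143 were the bright ones.

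The remaining regulators moved less, apart from ZNF462 and ZNF644 above. ZNF281, linked to stem cell and mesenchymal states, read 191 against 165 with a log2 ratio of 0.21. ZNF274, which brings the methyltransferase SETDB1 to the ends of ZNF genes, read 297 against 259.7 and 0.19. For ZNF384, a fusion partner in leukaemia, ZNF148, ZNF521, a partner of EBF1, ZNF410, the activator of CHD4, and ZNF263 the ratios lay between 0.03 and 0.07. ZNF532, which like NSD3 is a fusion partner of NUTM1 in NUT carcinoma, read 96.0 against 99.3 and had -0.05.

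Members that work outside DNA binding were 3 higher and 4 lower of 7, with none past 1.5-fold and a median log2 ratio of -0.05. The highest was ZNF185, an actin-associated LIM domain gene, at 640.0 against 473 and 0.44. ZNF451, a SUMO ligase gene, was lowest at 245 against 317 and -0.37, and ZNF638, an RNA-binding protein gene active in silencing of retroviral DNA, had -0.30 at 73.1 against 90.1. ZNF638 met the minimum on the control array alone, so it had to be lower. ZNF207, whose product aids spindle assembly through BUB3, had 0.03 at 598 against 585. Ribosome biogenesis was represented by ZNF622 at -0.18 and ZNF593 at 0.08, and RNA binding by ZNF106 at -0.05.

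Further probes of the same gene were available at the minimum for 4 genes. ZNF207 had 0.03 and 0.02 from its probes, ZNF451 had -0.37 and -0.31, and ZNF174 had -0.30 and -0.11. Both probes of ZNF174 and the dimmer probe of ZNF451 met the minimum on the control array alone, so they had to be lower. For ZNF226 the brightest probe gave -0.52, at 101 against 145, and the other 0.02, at 89.0 against 87.9. The probes of ZNF226 are annotated to different transcript records. Thus 3 of these 4 genes had probes of 1 sign, and the difference within ZNF226 was as large as most of the ratios named here. The remaining 122 ZNF genes rest on 1 probe at the minimum, and whether that probe reads close copies of its gene was not tested, since probe sequences were not used here.

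The ZNF genes differed from other genes in where they lie, and on chromosome 19 in their ratios. Chromosome 19 held 50 of the 126, 39.7%, against 5.49% of all named genes. On that chromosome 20 ZNF genes were higher and 30 lower, and their median log2 ratio was -0.07. Of 335 other named genes of chromosome 19, 258 were higher and 77 lower. They had a median of 0.25 and quartiles of 0.03 and 0.43. On all other chromosomes the medians were -0.03 for 76 ZNF genes and -0.02 for 6551 other genes. The difference between ZNF genes and their chromosome 19 neighbours was not tested, since there was 1 array per group.

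Brightness moved with this comparison. Among genes at 160 or more on at least 1 array, the 19 ZNF genes of chromosome 19 had a median log2 ratio of 0.19 with 12 higher and 7 lower, and the 211 other genes there had 0.29 with 161 higher. Among genes under 160 on both arrays, 8 of 31 ZNF genes were higher and the median was -0.17, against 97 of 124 other genes and 0.17. With 80 required on both arrays, at any brightness, the medians were -0.01 for 45 ZNF genes and 0.23 for 300 others. Of those, 20 ZNF genes and 226 others were higher. Among the dimmer ZNF genes, ZNF627, ZNF791, ZNF112, ZNF350 and ZNF615 met the minimum on the control array alone, so they had to be lower. Other genes of chromosome 19 also entered on 1 array alone. Requiring 80 on both arrays took these from 258 higher and 77 lower to 226 and 74. Most of the other genes left out thus had to be higher, so the minimum itself widened the contrast from both sides. Among the dimmer genes of chromosome 19, then, most ZNF genes were lower and most others higher, while among the brighter ones both were mostly higher. The dimmer genes were not compared without those that entered on 1 array alone. The part of brightness in this result was not tested further.

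**Figure D3:**
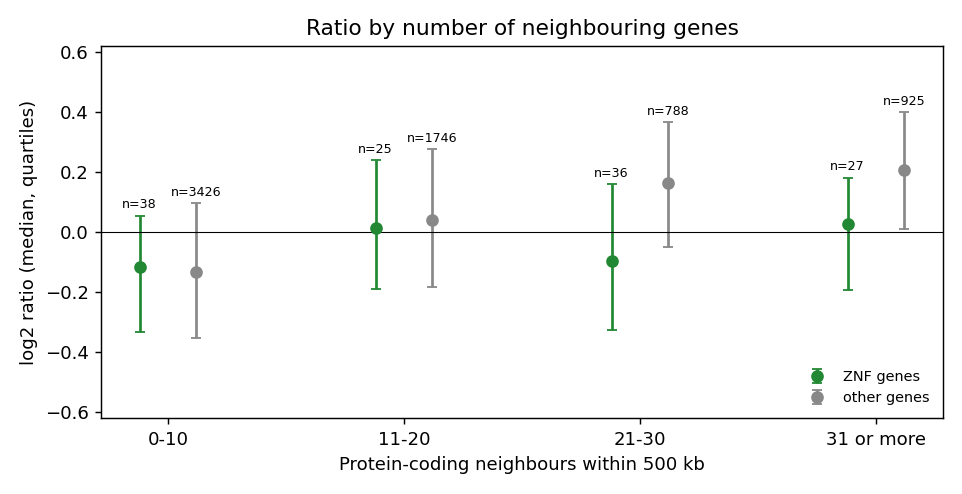
Median log2 ratio with quartiles (points and bars, vertical axis) of ZNF genes in green and other named genes in grey, by the number of protein-coding genes within 500 kb of the gene's midpoint (horizontal axis), with the number of genes above each bar. Other genes run from -0.13 at 0 to 10 neighbours to 0.21 at 31 or more, while ZNF genes run from -0.12 to 0.03. Genes that met the minimum on the control array alone or the NSD3L siRNA array alone are included, and their sign was fixed by the minimum.

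A contrast also appeared by gene neighbourhood in the more crowded regions, counted as protein-coding genes within 500 kb. ZNF genes lay in crowded regions, with a median of 20.5 neighbours against 11 for all named genes. Chromosome 19 is itself crowded. The median was 27 neighbours for its ZNF genes and 11.5 for those elsewhere, and 30 and 10 for other genes. This contrast therefore overlaps with that of chromosome 19 and is no separate observation, and the crowded groups were not split by chromosome. With 0 to 10 neighbours, the median log2 ratio was -0.12 for 38 ZNF genes and -0.13 for 3426 others. With 11 to 20 it was 0.01 for 25 ZNF genes, of which 14 were higher, and 0.04 for 1746 others, of which 968 were. With 21 to 30 it was -0.10 for 36 ZNF genes, of which 14 were higher, and 0.16 for 788 others, of which 547 were. With 31 or more it was 0.03 for 27 ZNF genes and 0.21 for 925 others. In the group with 21 to 30, ZNF615, ZNF112, ZNF350 and ZNF184 met the minimum on the control array alone, so they had to be lower. In the group with 31 or more, so did ZNF627, ZNF174, ZNF791 and ZNF165, while ZNF689 and ZNF629 had to be higher. The sparser groups also held such genes, as did the others. The groups and the correlation were not computed with the minimum required on both arrays. The part of the minimum in this contrast was not tested. Across genes, Spearman's rho between log2 ratio and neighbours was 0.16 over the 126 ZNF genes and 0.37 over 6885 others. These genes share the same pair of arrays and are not independent replicates.

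**Figure D4:**
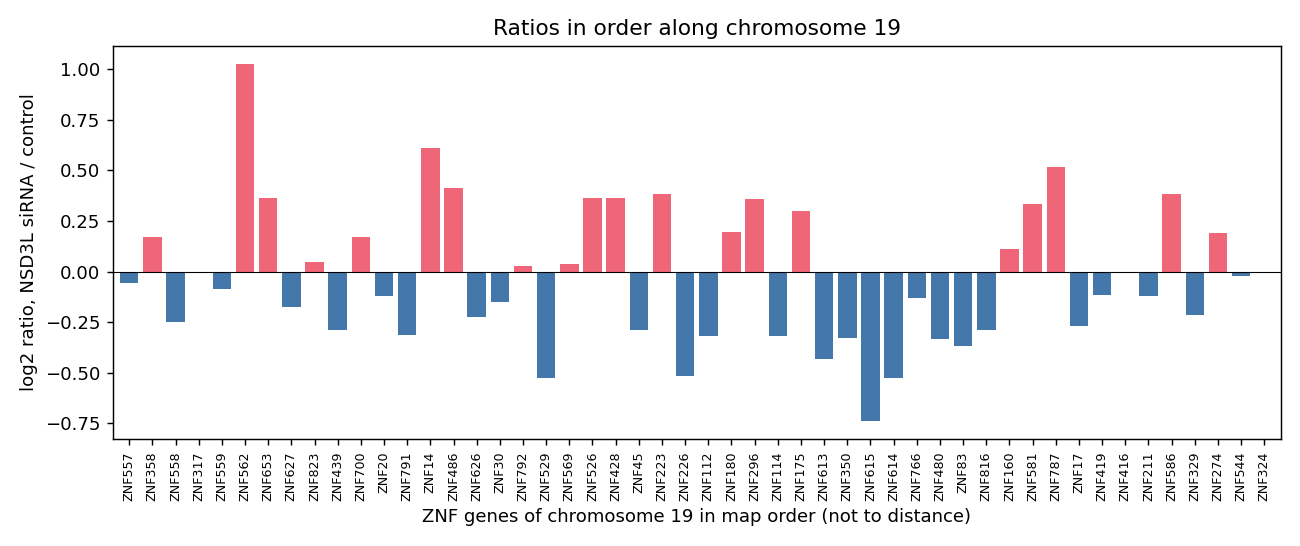
Log2 ratio of the 50 ZNF genes of chromosome 19 (bars, vertical axis; red above 0, blue below) in map order (horizontal axis, not to distance). ZNF562 is highest at 1.03, and the 8 genes from ZNF613 to ZNF816 are all below 0.

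Within chromosome 19 the ratios were uneven. Runs were defined, after the data were seen, as at least 4 ZNF genes with starts no more than 1000 kb apart. The run with the lowest median, -0.33, went from ZNF175 to ZNF160, with 2 genes higher and 8 lower. The 8 follow one another among the ZNF genes at the minimum, though not among all genes, and their shared sign is how they were picked out. All 8 ZNF genes from ZNF613 to ZNF816, at chr19:51927472-52962881 in GRCh38.p14, were lower with the NSD3L siRNA, with a median log2 ratio of -0.35. Among them ZNF615 and ZNF350 met the minimum on the control array alone, so they had to be lower. ZNF613 read 153 against 206, a log2 ratio of -0.43. ZNF615 and ZNF614, given above, had -0.74 and -0.53. ZNF350, which lies among them, read 67.9 against 85.1 and -0.33. The others were ZNF766 at -0.13, ZNF480 at -0.33, ZNF83 at -0.37 and ZNF816 at -0.29. The ZNF genes at the ends of the run, ZNF175 at 0.30 and ZNF160 at 0.11, were higher. The only other named gene at the minimum inside the run was PPP2R1A, a phosphatase scaffold gene. It lies between ZNF613 and ZNF816 and was higher, at 952 against 670.2 and 0.51.

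The other runs were mixed, apart from one. On chromosome 7, all 5 ZNF genes at chr7:149069641-149497809 were higher, around a median log2 ratio of 0.35. ZNF786 read 243 against 172 and 0.50, ZNF398 had 0.37, ZNF777 0.35, ZNF746 0.23 and ZNF212 0.01. Of the genes of this run, ZNF398 and ZNF777 met the minimum on the NSD3L siRNA array alone, so they had to be higher. The remaining runs, all on chromosome 19, held 1 higher and 3 lower genes around ZNF562, 3 and 4 from ZNF653 to ZNF791, 4 and 3 from ZNF428 to ZNF296, and 2 and 7 from ZNF17 to ZNF324. The ZNF genes of the set nearest to ZNF562 were ZNF559, at 199 against 211 and -0.08, and ZNF317, at 187 on both arrays. Neither shared the high ratio of ZNF562, and any ZNF genes below the minimum in between were not read.

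The promoters of 3 of the 8 lower genes from ZNF613 to ZNF816 are shown beside those of the 2 genes that followed ZNF395 at the top, to set neighbouring genes that were lower together beside genes that were higher. They are from RefSeq, build GRCh38.p14, 250 bases before to 50 after the first listed start, 5′ to 3′ on the gene's strand, and capitals mark CpG dinucleotides, the sites of DNA methylation. ZNF613 is at chr19:51927222-51927521 (+), ZNF615 at chr19:52008162-52008461 (-), ZNF614 at chr19:52028330-52028629 (-), ZNF562 at chr19:9675051-9675350 (-) and ZNF689 at chr16:30610384-30610683 (-).
ZNF613: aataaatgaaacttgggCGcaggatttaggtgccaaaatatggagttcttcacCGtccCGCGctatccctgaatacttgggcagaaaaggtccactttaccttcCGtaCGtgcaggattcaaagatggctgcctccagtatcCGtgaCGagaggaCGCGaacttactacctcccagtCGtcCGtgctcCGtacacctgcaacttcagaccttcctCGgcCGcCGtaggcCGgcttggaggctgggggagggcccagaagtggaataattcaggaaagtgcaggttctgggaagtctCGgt
ZNF615: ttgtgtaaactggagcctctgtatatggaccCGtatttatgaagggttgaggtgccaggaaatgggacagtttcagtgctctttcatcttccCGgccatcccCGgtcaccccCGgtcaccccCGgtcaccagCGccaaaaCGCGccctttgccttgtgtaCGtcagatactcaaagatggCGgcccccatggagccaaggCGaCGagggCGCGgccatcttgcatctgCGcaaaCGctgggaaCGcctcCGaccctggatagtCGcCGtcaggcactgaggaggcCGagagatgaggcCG
ZNF614: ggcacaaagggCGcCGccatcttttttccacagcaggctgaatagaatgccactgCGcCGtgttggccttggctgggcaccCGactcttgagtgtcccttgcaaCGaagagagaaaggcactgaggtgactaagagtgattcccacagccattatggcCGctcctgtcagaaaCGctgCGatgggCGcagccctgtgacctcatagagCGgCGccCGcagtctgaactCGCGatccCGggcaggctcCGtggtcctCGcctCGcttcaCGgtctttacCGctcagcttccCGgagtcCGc
ZNF562: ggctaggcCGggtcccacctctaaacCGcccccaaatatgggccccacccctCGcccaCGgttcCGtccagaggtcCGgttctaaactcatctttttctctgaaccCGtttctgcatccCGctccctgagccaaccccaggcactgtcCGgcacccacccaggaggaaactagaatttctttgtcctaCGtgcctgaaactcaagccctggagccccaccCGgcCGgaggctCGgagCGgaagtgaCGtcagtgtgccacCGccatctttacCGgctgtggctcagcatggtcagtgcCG
ZNF689: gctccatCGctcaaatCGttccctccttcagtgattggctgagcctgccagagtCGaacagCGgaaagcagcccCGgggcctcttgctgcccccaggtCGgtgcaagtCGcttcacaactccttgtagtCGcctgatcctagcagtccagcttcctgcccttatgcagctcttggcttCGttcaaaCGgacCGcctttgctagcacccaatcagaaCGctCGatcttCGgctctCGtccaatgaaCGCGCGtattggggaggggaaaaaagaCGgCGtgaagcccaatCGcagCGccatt

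These promoters held 18, 22, 23, 18 and 22 CpG dinucleotides in the order shown, against a median of 23 for the ZNF genes and 27 for all named genes. The lower genes therefore could not be told from the higher ones by this count. Aligned end to end, the promoters of neighbours ZNF613 and ZNF615 were identical at 51.1% of aligned positions and those of ZNF615 and ZNF614 at 50.1%, no closer than ZNF615 and ZNF562 at 52.1%. Promoters were listed for 105 of the 126 ZNF genes. Over those, Spearman's rho between log2 ratio and promoter CpG count was 0.01, and between log2 ratio and GC percentage 0.18, against 0.13 and 0.17 over 5826 other genes.

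Motifs were searched in these windows on both strands. ACTACAA, part of the site bound by ZNF143, was in the promoters of 10 of 105 ZNF genes, 9.52%, against 2.95% of all listed promoters and 4.13% of those of named genes at the minimum. ZNF689 has it on the reverse strand, as TTGTAGT. The 10 genes had a median log2 ratio of 0.08 and the other 95 one of -0.06. ACGTG, the core that hypoxia-inducible factors bind, was in 31.4% of ZNF promoters, 21.6% of all promoters and 28.9% of those of named genes at the minimum, and TTCCCGC, an E2F core, in 9.52%, 6.56% and 11.1%. A match is a description of these letters, not of binding. The promoter of ZNF395 was not used here.

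Relatives of the ZNF genes under other symbols were compared by the same rules. Among all named genes at the minimum, 49.3% were higher and 50.5% lower, and each group below holds few genes. All 8 ZSCAN and ZKSCAN genes, whose products join a SCAN domain to zinc fingers, were lower, by small amounts. Of these, ZSCAN31 and ZKSCAN4 met the minimum on the control array alone, so they had to be lower. Their median log2 ratio was -0.20, from -0.37 for ZSCAN31 to -0.04 for ZSCAN26, and 6 of the 8 lie on chromosome 6. The 16 ZBTB genes, which carry a BTB domain, had 8 higher and 8 lower and a median of 0.00. ZBTB11 met the minimum on the control array alone, and ZBTB20 and ZBTB43 on the NSD3L siRNA array alone. Among 5 ZFP genes 1 was higher and 4 lower, with a median of -0.07. ZFP37 met the minimum on the control array alone, so it had to be lower. The 8 KLF genes had a median of 0.34, with 6 higher. A ZNF symbol that ends in a letter was not counted above. There were 8 such genes, 2 higher and 6 lower, and one of them, ZNF585A at 56.4 against 115, had a log2 ratio of -1.03, lower than any gene of the main set. ZNF585A, ZNF585B and ZNF354A met the minimum on the control array alone, so they had to be lower. ZNF512B met it on the NSD3L siRNA array alone, so it had to be higher.

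The co-repressor machinery of KRAB zinc finger proteins, listed here together with DNA methylation genes, was partly readable. Of 20 listed genes 13 met the minimum, with a median log2 ratio of 0.13. Of the 13, 8 were higher and 5 lower, beside 49.3% and 50.5% of all named genes. Only 1 was higher and 2 lower past 1.5-fold, beside 5.36% and 5.82%. So few genes allow no reading of the list as a whole. Past 1.5-fold were UHRF1, a reader of methylated DNA, at 747 against 435 and 0.78, SMARCAD1, a remodeller that binds TRIM28, at 102 against 185 and -0.86, and MORC3 at 98.8 against 150 and -0.60. TRIM28 itself read 148 against 104 and 0.51, and DNMT1, the maintenance DNA methyltransferase, 3437 against 2434 and 0.50. SETDB1, at 68.3 against 62.9, was under the minimum. So were ATF7IP, TASOR, CBX5, CHD3, RIF1 and KAT5.

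The cells were checked against markers. All 9 of the markers of the line that were on the array met the minimum, among them VIM at 9129 against 8758, and 2 of them were past 1.5-fold higher with the NSD3L siRNA, EGFR at 350 against 182 and AXL at 3246 against 2159. Of 8 luminal breast markers, KRT19 and EPCAM met it, and the defining ESR1, PGR, GATA3, FOXA1 and ERBB2 lay between 33.4 and 47.5. No fibroblast marker (6 on the array) or blood marker (4) met it on either array, with the highest readings 55.6 and 53.8.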

How the data were processed

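Total RNA of 2 cultures of MDA-MB-231 cells was labelled and hybridised to Illumina beadchips, 1 array each. The authors' deposited table holds a linear intensity for each of 48701 probes on each array. Per the submitters' processing notes BeadStudio was used; the sources used here do not give its version, background correction or normalization. The deposited values run from 23.8 to 17421, keep a background and have medians of 38.4 on both arrays. The number of arrays limits the precision.

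Probes were named through the platform annotation given for the series. The series text names array version 3.0, and whether the annotation is of that version was not established. Gene names therefore rest on the match of probe identifiers alone. One symbol was found for 23687 probes, several for 35 and none for 24979. All 126 ZNF genes kept their symbol in the RefSeq gene table (GRCh38.p14). The log2 ratio of NSD3L siRNA over control siRNA intensity was computed with no offset (Python 3.11.15, pandas 2.3.3, scipy 1.17.1, statsmodels 0.14.6), tested on simulated data. With 1 array per group no p-value was computed. Spread was described by the SD of the log2 ratio over probes at 80 or more, in 10 groups of equal size by brightness.

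Genes were named by rule: ZNF395 and its family, the 12 highest and 12 lowest ratios, the 4 brightest, those at the edge of the minimum, those with several probes, and the extremes of lists. Genes with known roles, the runs along chromosomes and the promoter comparison were chosen after the values were seen. The genes of the set and the lists were chosen with earlier results of these data known. A planned split by finger number and KRAB domain was not made, because protein sequences were not used here. Alternatives were quantile normalization, median centring, lowess, subtraction of each array's mode, an offset of 16, other intensity minimums and rules, the mean over probes, removal of a gene density trend, and symbols ending in a letter.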

Additional observations from a re-analysis of the deposited data

How the results depend on the processing

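ZNF395 ranked first among the ZNF genes under all 13 alternatives, with a log2 ratio between 1.51 with an offset of 16 and 1.73 with the mode subtracted. Quantile normalization and median centring left that ratio at 1.57. Other minimums and rules, the mean over probes and the added symbols could not change it, since its 1 probe passed each minimum on both arrays. Subtracting the mode gave 13 genes higher and 15 lower past 1.5-fold and 4 higher and 5 lower past 2-fold; it moved 9 of the 10 named values that moved, among them ZNF562 to 1.46, ZNF165 to -1.49 and SLC2A4RG to 1.08. Past 2-fold, 1 gene was higher with the offset of 16, 1 higher and 1 lower with the density trend removed (47 higher and 79 lower by sign, medians of -0.11 in all and -0.18 on chromosome 19), and 1 lower (ZNF585A) with symbols ending in a letter, added after seeing the data. The shares of all named genes were not counted with the mode subtracted, with the offset of 16 or with the density trend removed. Counts under these settings therefore have no background beside them and show no excess of ZNF genes. A minimum of 60 gave 104 lower genes of 185. With 80 on both arrays 4 were lower past 1.5-fold. A minimum of 160 left 52 genes, 26 higher and 26 lower, 3 higher and 2 lower past 1.5-fold, and turned the chromosome 19 median to 0.19 by keeping fewer, brighter genes. None of the named genes past 1.5-fold changed sign; of 84 named genes, 8 with ratios near 0 did, each with the density trend removed. No paired analysis was possible because each group had 1 array.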
